A study of Homo sapiens with 20 samples.

Results

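Clones grown from nickel-exposed bronchial epithelial cells were set against the unexposed cells of the same 6-week experiment. The members are the 8 libraries titled Ni_clone 1 to 6 and Control_6W 1 and 2, of 20 libraries in the series, and all of them are BEAS-2B, a human bronchial epithelial line that grows without limit after transformation. Ni_clone (n = 6) holds 1 library for each of 6 clones. Their parent population had been kept in nickel chloride for 6 weeks, was then plated thinly without nickel, and separate colonies were picked and expanded without it. Control_6W (n = 2) is labelled as the control of the 6-week exposure; nothing in the labels says that it was cloned or replated. Each clone descends from 1 colony, so past nickel, plating, picking and time in culture cannot be told apart in this comparison. Where other libraries are used below they are Ni_6W+2W (n = 2), the uncloned 6-week population after 2 weeks of wash-out, Ni_6W (n = 2), Ni_3D and Ni_3D+14D (n = 2 each), from a 3-day exposure and from 14 days after it, and Control_3D (n = 4), the unexposed cells of the 3-day experiment. Whether the controls came from separate cultures is not stated; a p-value here reflects the spread between these libraries, which for the controls may be technical.

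Epithelial cells are held in sheets by cadherin junctions and keratin filaments. In epithelial-mesenchymal transition (EMT) transcription factors of the ZEB, SNAI and TWIST families repress junction genes, and cells gain a motile form with fibronectin, collagens, integrins and vimentin. ZEB1, which the series title names, binds short sequences called E-boxes in the promoters of genes such as CDH1 and keeps them silent.

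The clone libraries held 16524990 to 20009974 reads and the Control_6W libraries 17454710 to 18610847 reads in 25411 genes. Levels are given as CPM, the read count scaled to library size, after TMM factors that allow for differences in composition between libraries. Clone libraries correlated with each other at r = 0.965 to 0.989 over genes, with Control_6W replicate 1 at 0.962 to 0.978 and with Control_6W replicate 2 at 0.947 to 0.958. Control_6W replicate 2 therefore stood farther from every clone than replicate 1 did, and the controls differed from each other by over 2-fold in 1088 genes. Of 12 markers of bronchial epithelium KRT8, KRT18 and LAMB3 were the most abundant, and KRT5, KRT14, KRT15 and TP63, which define basal airway cells, were under 1 CPM in all 8 libraries. The summed level of these 12 was 947 to 1310 CPM in clones and 964 to 1059 CPM in controls. Markers of ciliated and secretory, alveolar, endothelial and immune cells summed to at most 74.6 CPM in clones and 75.7 CPM in controls, and SCGB3A1, SFTPC and PECAM1 were among those at 0 in all 8. Of 10 fibroblast markers DCN and DPT were at 0, while COL1A1, THY1 and PDGFRB were the most abundant (summed level 2876 to 7555 CPM in clones, 3439 to 4639 CPM in controls). The neuronal markers summed to 37.7 to 121 CPM in clones and 64.6 to 114 CPM in controls, mainly TUBB3, with STMN2 and GAP43 at 0.

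In clones 398 genes were called as higher than in Control_6W (2.81% of 14172 tested) and 375 as lower (2.65%), 5.45% together, by edgeR's quasi-likelihood test at an adjusted p under 0.05 (Benjamini-Hochberg). The rises were larger: 271 exceeded 2-fold and 152 exceeded 4-fold, against 103 and 23 of the falls. The median log2 fold change was 1.504 among rises and -0.81 among falls, beside -0.005 over all genes tested. In all 398 rises every clone lay above both controls, as it did in 11.8% of all genes tested; in 366 of 375 falls every clone lay below both, as in 12.5% of all genes. Because these are bulk samples, fewer cells expressing a gene and less RNA per cell cannot be told apart.

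The calls depended on Control_6W replicate 2. Without it 7 genes were called (0.0479% of 14599 tested), and without Control_6W replicate 1 there were 1492 (10.2%). With 1 control left the spread is that of the clones alone, and the lone control is assumed to vary as they do; this holds for each value below given without a control. The number called was 231 without clone 2, 264 without clone 3, 353 without clone 4 and 451 without clone 6. The 7 without Control_6W replicate 2 included DNAJA4, GALC, KIAA1244, OSBPL6 and TFPI2, which rose, and SEH1L, which fell; those other than GALC and OSBPL6 are named because this count singled them out. DNAJA4, a cochaperone of the HSP40 family, was 18.5 to 31.3 CPM in clones against 0.82 and 0.489 CPM in controls. SEH1L, a nuclear pore subunit, was 75.3 to 82.9 CPM in clones against 169 and 302 CPM. Without Control_6W replicate 2 all 398 rises and 373 of 375 falls kept their sign, the exceptions being SERPINB2 and SYT12. Every clone lay on 1 side of both controls in all 398 rises and in 366 of the falls. There the sign could not change, so the count does not show how firm the direction is. Without replicate 2 the median log2 fold changes of rises and falls were 1.44 and -0.60, beside 1.504 and -0.81 with both controls. Replicate 2 lay above replicate 1 in 306 of the 375 falls (81.6%) and in 159 of the 398 rises (39.9%), against 51.6% of all genes tested.

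**Figure D1:**
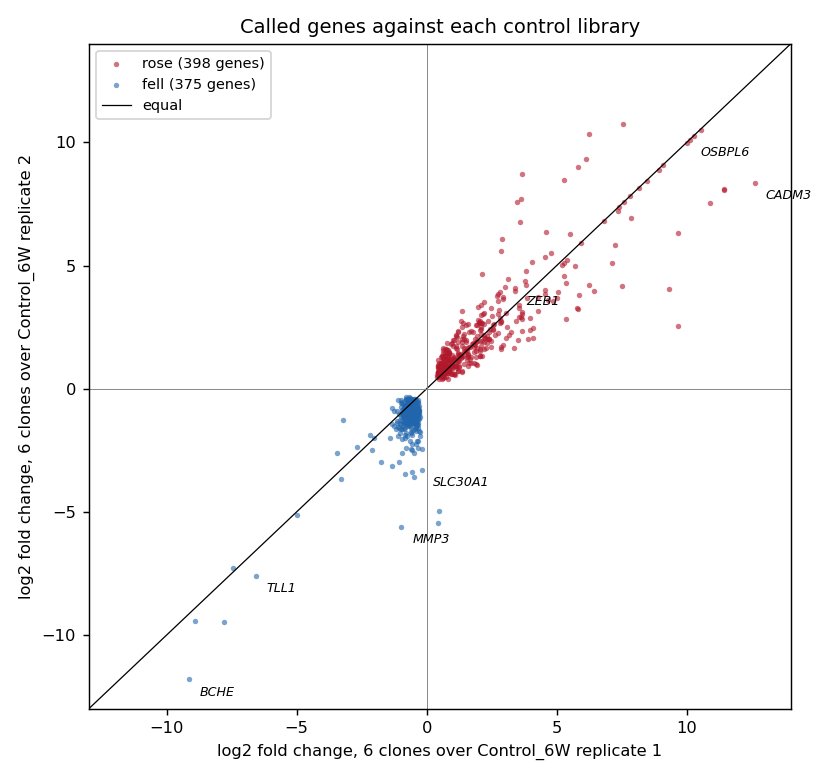
Each point is 1 of the 773 called genes, with the log2 fold change of the 6 clones over Control_6W replicate 1 on the x axis and over Control_6W replicate 2 on the y axis; the line marks equal values. Rises (red) lie along the line, while most falls (blue) lie below it, nearer 0 against replicate 1 than against replicate 2, as SLC30A1 (-0.17 and -3.30) and MMP3 (-0.97 and -5.60) do.

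ZEB1, on chromosome 10 at 31610065 to 31818742 of hg19, was 7.75 to 14.6 CPM in clones (median 9.32) against 0.984 and 0.612 CPM in Control_6W. The lowest clone stood well above the higher control. Its log2 fold change was 3.69 (SE 0.40, adjusted p = 0.00305, edgeR), a 13.1-fold ratio of mean levels. The value was 3.40 without Control_6W replicate 2, where the call was lost (adjusted p = 0.0762), and 4.08 without replicate 1 (adjusted p = 0.00577). It stayed called with any 1 clone left out (adjusted p = 0.00422 to 0.0122). In the unexposed Control_3D libraries ZEB1 was 11.9 and 12.4 CPM in replicates 1 and 2, within the range of the clones, and 1.04 and 1.76 CPM in replicates 3 and 4. With all 6 unexposed libraries as the control its log2 fold change was 1.09 and the call was lost (adjusted p = 0.385). In the authors' deposited tables of each clone against the mean of the controls, the log2 ratio of ZEB1 ran from 1.54 in clone 2 to 2.61 in clone 1. The RPKM of ZEB1 in the authors' deposited tables was 1.202 in clone 2 and 2.19 in clone 1, against 0.124 in the controls; how their ratio was computed from it is not given in the sources used here.

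TWIST2 and TWIST1, basic helix-loop-helix factors that bind E-boxes and act in mesoderm, rose as well. TWIST2 was 7.55 to 14.4 CPM in clones (median 9.43) against 3.28 and 2.02 CPM in controls, a log2 fold change of 1.92 (SE 0.33, adjusted p = 0.0172). TWIST1 was 17.6 to 35.8 CPM in clones (median 25.4) against 13.01 and 8.08 CPM, a log2 fold change of 1.33 (SE 0.30, adjusted p = 0.0354). In the unexposed Control_3D libraries TWIST1 was 30.2, 28.1, 21.8 and 19.2 CPM, all within the range of the clones. TWIST2 was 9.06 and 8.77 CPM in Control_3D replicates 1 and 2, and 3.44 and 2.35 CPM in replicates 3 and 4. Neither passed without Control_6W replicate 2 (adjusted p = 0.169 and 0.28). Of 13 EMT transcription factors listed 10 were tested, 3 rose and 0 fell, against 2.81% and 2.65% of all genes tested. Their median log2 fold change was 1.21, against -0.005 for all genes, and 1.004 without Control_6W replicate 2. SNAI2 (Slug) was 1.33 CPM in clone 1 and 6.01 to 12.1 CPM in the other clones, against 1.203 and 1.10 CPM in controls. All 6 clones were above both controls, and its log2 fold change of 2.88 (SE 0.76) missed the threshold (adjusted p = 0.0577, edgeR). SNAI2 passed without clone 1 (3.11, adjusted p = 0.00462, edgeR) and with all 6 unexposed libraries as the control (2.32, adjusted p = 0.0364, edgeR). It passed by DESeq2 as well (2.89, adjusted p = 0.000163), and under none of the other alternatives. SNAI1 (Snail), a close relative, was 2.30 to 16.0 CPM in clones against 3.17 and 2.69 CPM and overlapped (log2 fold change 1.09, SE 0.68, adjusted p = 0.343). ZEB2, the paralog of ZEB1, was 79.8 to 118 CPM in clones against 113 and 67.5 CPM and overlapped too (0.17, SE 0.21, adjusted p = 0.656). The gene model of ZEB2 here spans 145268953 to 145277958 of hg19 on chromosome 2 and may be a part of the gene.

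**Figure D2:**
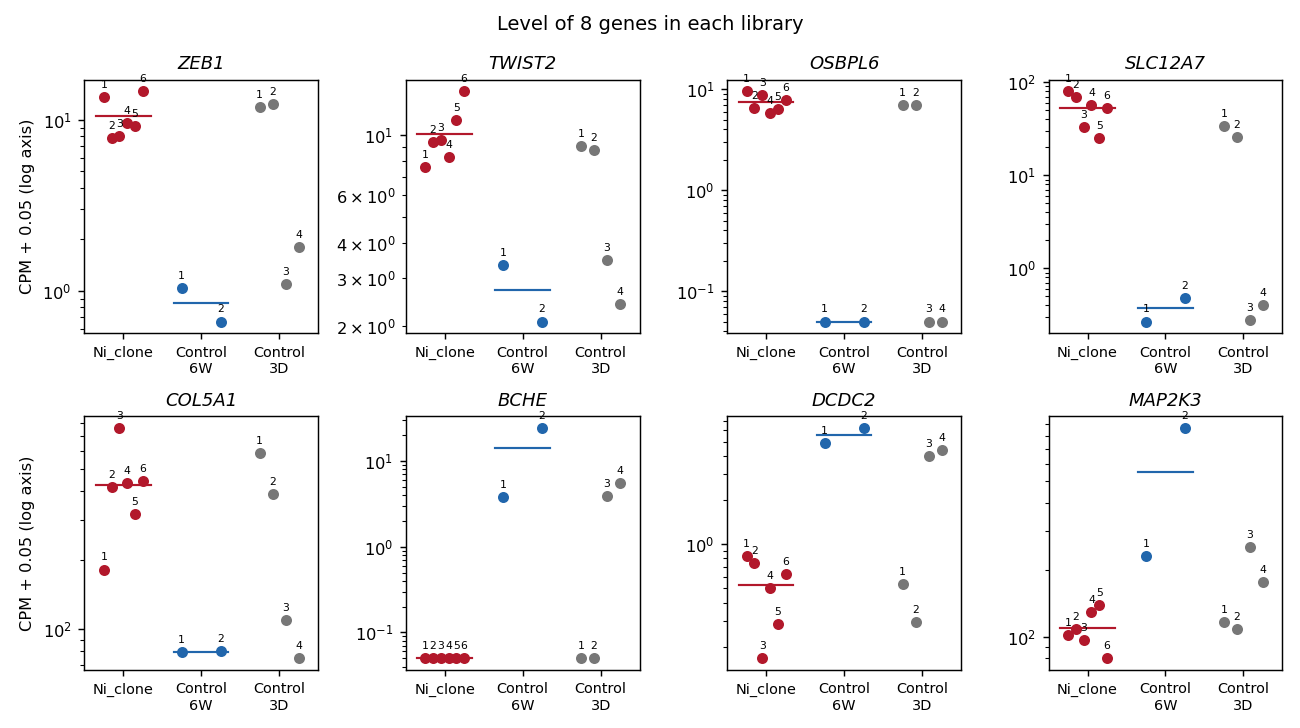
Level of 8 genes in each library of Ni_clone, Control_6W and Control_3D, as CPM + 0.05 on a log axis, with replicate numbers above the points and a line at the mean of Ni_clone and of Control_6W. In each panel the clones lie on 1 side of both Control_6W libraries, and Control_3D replicates 1 and 2 lie on the clones' side. Control_3D replicates 3 and 4 lie on the side of Control_6W, except replicate 4 for MAP2K3. There it is at 175 CPM, between the highest clone (138 CPM) and the lower Control_6W library (230 CPM).

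The E-box word that ZEB factors are known to bind is CAGGTG, or CACCTG read on the other strand. The 100 bases before the RefSeq start of ZEB1 itself, of 2 more genes that rose and of 1 that fell are shown so that the word can be seen where it occurs. They are 4 of the 6 named genes that hold it within that distance, and are given 5′ to 3′ on the gene's strand in GRCh38.p14, with the word in capitals: ZEB1 at chr10:31318317-31318416 (plus), SLC12A7 at chr5:1112064-1112163 (minus), CDH4 at chr20:61499321-61499420 (plus) and FGF1 at chr5:142698071-142698170 (minus).
ZEB1: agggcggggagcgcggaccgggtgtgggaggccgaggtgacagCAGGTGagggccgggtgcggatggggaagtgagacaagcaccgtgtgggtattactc
SLC12A7: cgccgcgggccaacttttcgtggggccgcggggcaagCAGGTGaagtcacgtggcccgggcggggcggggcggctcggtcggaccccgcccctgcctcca
CDH4: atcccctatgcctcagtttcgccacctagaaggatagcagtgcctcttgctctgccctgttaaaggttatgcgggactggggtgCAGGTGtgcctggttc
FGF1: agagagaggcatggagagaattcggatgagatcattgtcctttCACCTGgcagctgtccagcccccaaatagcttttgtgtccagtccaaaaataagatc
The word begins 57 bases before the start in ZEB1 and in FGF1, 63 before it in SLC12A7 and 16 before it in CDH4. Over windows of 300 bases (250 before to 50 after the start) it was found, on either strand, in 56 of 288 matched genes that rose (19.4%) and 46 of 288 that fell (16.0%), beside 1885 of 10311 matched genes tested (18.3%) and 5625 of all 27305 windows (20.6%). A match is a description of letters and not a site of binding. Windows were matched to genes by symbol, so the start used can differ from that of the transcript counted in hg19.

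FN1, VIM, CDH2, CDH1 and EPCAM, which are widely used to follow EMT, did not pass the test. FN1, the matrix protein fibronectin, was 213 CPM in clone 1 and 618 to 2082 CPM in the other clones, against 117.8 and 174 CPM in controls. Its gene model here spans 216279385 to 216300791 of hg19 on chromosome 2 and may be a part of the gene. Every clone was above both controls, but the log2 fold change of 2.68 (SE 0.77) missed the threshold (adjusted p = 0.0744) and passed without clone 1 (2.89, adjusted p = 0.0321). In Control_3D FN1 was 3172 and 3110 CPM in replicates 1 and 2, above every clone, and 160.4 and 102.7 CPM in replicates 3 and 4, and with all 6 unexposed libraries as the control the direction turned (-0.28, adjusted p = 0.893). VIM, which forms the filaments of mesenchymal cells, was 1624 to 3565 CPM in clones against 2288 and 1586 CPM, and CDH2 (N-cadherin) was 180 to 248 CPM against 231 and 236 CPM; their groups overlapped (adjusted p = 0.597 and 0.533). CDH1 (E-cadherin) was at most 0.988 CPM in clones against 0.437 and 1.96 CPM, and EPCAM, an epithelial adhesion molecule, was 1.69 to 5.39 CPM against 2.02 and 3.49 CPM; neither passed (adjusted p = 0.336 and 0.706). Of 46 genes of epithelial junctions and identity 36 were tested, 1 rose and 1 fell (5.56%, against 5.45% of all genes tested), with a median log2 fold change of 0.17. ESRP2, a splicing factor of epithelial cells, was the one that rose: 2.80 to 11.9 CPM in clones against 0.711 and 0.428 CPM (log2 fold change 3.25, SE 0.66, adjusted p = 0.0269). CLDN1, a tight junction claudin, fell: 144 to 228 CPM in clones against 244 and 826 CPM (-1.52, SE 0.36, adjusted p = 0.0438). Without Control_6W replicate 2 neither was called (adjusted p = 0.234 and 0.562), and the value of CLDN1 was then -0.38. Of 8 keratins tested, from 19 listed, KRT34 fell, with overlapping groups (0.598 to 2.00 CPM in clones, 1.75 and 14.7 CPM in controls), and 0 of 18 contractile and cytoskeletal genes were called by edgeR (5 at an unadjusted p under 0.05; 3 by DESeq2).

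Among genes of the extracellular matrix, of 26 collagen chains tested 2 rose and 0 fell (7.69% called, against 5.45% of all genes tested). Their median log2 fold change was 0.67, against -0.005 over all genes tested, and 21 of the 26 had a positive value. Every clone lay above both controls in 5 of the 26 and below both in 1, against 11.8% and 12.5% of all genes tested. COL5A1, a chain of fibrillar collagen V, was 182 to 757 CPM in clones (median 426) against 79.2 and 79.8 CPM in controls (2.42, SE 0.47, adjusted p = 0.0269). COL8A1, a chain of network-forming collagen VIII, was 7.73 to 58.7 CPM (median 27.0) against 2.41 and 2.88 CPM (3.42, SE 0.74, adjusted p = 0.0356). Both controls nearly coincided in these genes, and clone 1 was the lowest clone in each. In the unexposed Control_3D replicates 1 and 2 COL5A1 was 591 and 389 CPM and COL8A1 41.8 and 42.3 CPM, within the range of the clones. In replicates 3 and 4 they were 109.8 and 74.5 CPM, and 4.02 and 2.82 CPM. Of 40 matrix glycoproteins tested 2 rose and 1 fell (7.5%). FBN1, the microfibril protein fibrillin, was 222 to 317 CPM in clones (median 300) against 135 and 115 CPM (1.18, SE 0.17, adjusted p = 0.0111). LAMA4, a laminin chain, had 0 reads in both controls and 0.876 to 8.71 CPM in clones, at least 41.8-fold higher when the controls together are set at a floor of 3 reads. Its gene model here covers only 112574985 to 112575917 of hg19 on chromosome 6. These values may therefore be those of a short transcript and not of the whole gene. LAMA1, the laminin chain of early basement membranes, fell: 36.1 to 59.7 CPM in clones against 89.2 and 194 CPM (-1.60, SE 0.25, adjusted p = 0.0155). Without Control_6W replicate 2 none of these 5 was called (adjusted p = 0.121 to 0.25).

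Among proteases that cut the matrix, and their inhibitors, 1 of 33 tested rose and 3 fell, against 2.81% and 2.65% of all genes tested. ADAMTS3, which trims procollagen ends, was 3.27 to 5.70 CPM in clones against 2.02 and 0.918 CPM (1.67, SE 0.38). MMP16, a membrane-bound metalloproteinase, was 0.528 to 2.10 CPM in clones against 6.62 and 5.26 CPM, with both controls well above the clones (-2.04, SE 0.40). MMP3, the secreted stromelysin, was 0.046 to 0.705 CPM in clones against 0.711 and 17.7 CPM, and TIMP3, an inhibitor of such enzymes held in the matrix, was 29.3 to 55.9 CPM against 50.6 and 216 CPM. In MMP3 and TIMP3 Control_6W replicate 1 lay at the edge of the clones, and without replicate 2 their log2 fold changes were -0.97 and -0.33 in place of -4.65 and -1.73 (adjusted p = 0.688 and 0.631). Of 17 integrins 2 rose. ITGAV, the alpha chain of fibronectin and vitronectin receptors, was 156 to 234 CPM in clones against 104 and 129 CPM (0.76, SE 0.18, adjusted p = 0.0395). ITGA4, whose product pairs with integrin beta chains to bind fibronectin and VCAM1, was 4.97 to 37.9 CPM against 0.766 and 1.90 CPM (4.08, SE 0.94, adjusted p = 0.0428). Without replicate 2 neither integrin, ADAMTS3 nor MMP16 was called (adjusted p = 0.155 to 0.27).

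Several cell adhesion and guidance genes were at or near 0 reads on 1 side of the comparison and clearly present on the other. Of 14 cadherins and protocadherins tested, from 28 listed, 1 rose and 2 fell. CDH4 (R-cadherin), of retina and neurons, was 1.09 to 6.66 CPM in clones against 0 and 0.245 CPM in controls (5.09, SE 1.04, adjusted p = 0.0282). CDH12, a neural cadherin, had 0 reads in all clones against 1.48 and 4.77 CPM, at least 114-fold lower with the clones together set at 3 reads. CDH18, of the same subfamily, had 2 reads over the 6 clones against 28 over the controls, a ratio of controls to clones of 45.7 (exact 95% interval 11.5 to 396, counting error only). Of 48 axon guidance genes 4 rose and 0 fell, 8.33% against 5.45% of all genes. ROBO1, the receptor of the SLIT guidance ligands, had 0 reads in both controls and 1.98 to 29.5 CPM in clones. UNC5A, a netrin receptor, was 0.881 to 3.03 CPM in clones against 0.273 and 0.306 CPM. The class 4 semaphorins SEMA4B (96.4 to 124 CPM in clones against 64.7 and 41.0 CPM) and SEMA4D (41.3 to 62.7 CPM in clones against 30.02 and 24.4 CPM) were abundant in every library and rose by 1.06 (SE 0.18) and 0.83 (SE 0.18) on the log2 scale. Of 17 neural adhesion, cytoskeletal and secretory genes tested, from 41 listed, NFASC (neurofascin) rose to 80.6 to 130 CPM in clones against 52.8 and 48.5 CPM, and NLGN2 (neuroligin 2) fell to 184 to 290 CPM against 371 and 327 CPM. Adjusted p-values of these 9 ran from 0.0172 (SEMA4B, NFASC, CDH18) to 0.0498 (ROBO1), and without Control_6W replicate 2 none of the 9 was called (adjusted p = 0.128 to 0.266).

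The 12 largest rises with a level of at least 5 CPM included, in order, ROBO1, PTPRN, OSBPL6, GALC, CADM3, SNURF, SNRPN, MARK1, CPVL, SLC12A7 and RPS6KA2. OSBPL6, an oxysterol-binding lipid transfer protein, had 0 reads in both controls and 5.80 to 9.48 CPM in clones, at least 85.8-fold higher. GALC, the lysosomal galactosylceramidase, also had 0 reads in both controls and 4.99 to 9.24 CPM in clones, at least 79.6-fold higher. Among the 67 called genes chosen by the rule these 2 alone were still called without Control_6W replicate 2 (adjusted p = 0.00838 for each, against 0.000543 with both controls). PTPRN, a protein of secretory granules in neuroendocrine cells, had 0 reads in both controls and 2.67 to 13.4 CPM in clones, at least 95.4-fold higher, and ROBO1 was at least 116-fold higher. SLC12A7, the potassium-chloride cotransporter KCC4, was 25.1 to 79.9 CPM in clones (median 54.9) against 0.219 and 0.428 CPM, a 164-fold ratio of mean levels (log2 fold change 7.35, SE 0.70, adjusted p = 0.00256).

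The other large rises rested on 1 or 2 reads in the controls, so that their ratios have wide intervals. CADM3, a nectin-like adhesion molecule of neurons, was 8.15 to 92.3 CPM in clones against 2 reads over both controls, a ratio of 710 (exact 95% interval 196 to 5860, counting error only). MARK1, a kinase that phosphorylates microtubule-associated proteins, was 4.28 to 16.6 CPM in clones against 1 read, a ratio of 437 (78.3 to 17300). CPVL, a serine carboxypeptidase, was 1.47 to 16.9 CPM against 1 read (402, interval 72.0 to 15900). RPS6KA2, a ribosomal S6 kinase downstream of ERK, was 5.02 to 23.6 CPM against 2 reads (171, 47.2 to 1410). SNURF and SNRPN, which are read from the imprinted locus on chromosome 15, were 8.87 to 30.7 and 8.81 to 30.6 CPM in clones against 1 read each. These 2 gene models share exons and almost all of their counts, so they are 1 observation. In all 398 rises, 13 genes had 0 reads and 37 had at most 3 reads over both controls.

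The 12 largest falls among genes of at least 5 CPM in 1 group whose libraries did not overlap were BCHE, TLL1, MMP3, DCDC2, FGF1, WNT7B, MAP2K3, DUSP2, MMP16, DOCK3, ARAP2 and RDH10. BCHE, which encodes butyrylcholinesterase, had 0 reads in all 6 clones against 3.77 and 24.3 CPM in controls, at least 507-fold lower. The 4 falls with 0 reads in every clone were BCHE, CDH12, TENM1 and LOC100507377; TENM1 and LOC100507377 are named because this count singled them out. TLL1, a tolloid-like protease of bone morphogenetic protein signalling, had 4 reads over the clones against 4.05 and 8.20 CPM (log2 fold change -7.17, SE 0.72, adjusted p = 0.00256). DCDC2, a doublecortin-domain protein of cilia and microtubules, was 0.117 to 0.783 CPM in clones against 4.87 and 6.18 CPM (-3.49, SE 0.48, adjusted p = 0.0107). DOCK3, an activator of RAC, was 1.46 to 4.01 CPM against 10.6 and 10.5 CPM (-2.02, SE 0.31, adjusted p = 0.0141). In DCDC2 and DOCK3 the controls were close together, and their values without Control_6W replicate 2 were -3.32 and -2.03.

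In other falls the size came from Control_6W replicate 2. FGF1, an acidic fibroblast growth factor, was 3.18 to 10.3 CPM in clones against 14.2 and 88.3 CPM, and its log2 fold change was -2.69 with both controls and -0.84 without replicate 2. MAP2K3, a kinase that activates p38, was 80.1 to 138 CPM against 230 and 867 CPM (-2.33 and -1.07). ARAP2, a GTPase-activating protein for ARF proteins, was 4.26 to 7.23 CPM against 8.20 and 35.8 CPM (-1.92 and -0.50). RDH10, a retinol dehydrogenase, was 6.39 to 8.32 CPM against 12.5 and 38.4 CPM (-1.83 and -0.80). In these 4 genes replicate 2 was several-fold above replicate 1, and replicate 1 was itself above every clone. None of the 12 falls was called without Control_6W replicate 2 (adjusted p = 0.0671 to 0.688); with it they ran from 0.00256 to 0.0394.

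Among signalling genes, of 29 in the Wnt pathway that were tested 3 rose and 2 fell. Over all genes tested 2.81% rose and 2.65% fell. SFRP1, a secreted Wnt antagonist, was 4.23 to 24.9 CPM in clones against 0.656 and 0.979 CPM (4.26, SE 0.77). ROR2, a receptor of noncanonical Wnt ligands, was 48.9 to 62.1 CPM against 30.6 and 35.8 CPM (0.75, SE 0.15), and TCF7L1, a TCF repressor, was 18.1 to 20.7 CPM against 13.8 and 11.9 CPM (0.61, SE 0.14). WNT7B, a ligand made by lung epithelium, was 0.639 to 2.76 CPM in clones against 5.47 and 12.97 CPM (-2.49, SE 0.48), and ZNRF3, which removes Wnt receptors from the surface, fell too. Of 36 growth factors and receptor kinases tested 3 rose and 2 fell. IGF1R, the receptor of insulin-like growth factor, was 91.1 to 125 CPM in clones against 47.4 and 66.3 CPM (0.95, SE 0.18). EGFR was 81.4 to 122 CPM against 47.0 and 69.8 CPM (0.79, SE 0.19), and IGFBP7, a secreted binding protein, was 72.6 to 152 CPM against 33.2 and 57.9 CPM (1.38, SE 0.34). FGF1 and NRG1, the ligand neuregulin, were the 2 that fell. PMEPA1, a feedback inhibitor of TGF-beta, was the only one called of 34 TGF-beta and BMP genes (4.57 to 11.9 CPM in clones against 1.15 and 2.57 CPM), and DUSP2, a nuclear phosphatase of ERK, the only one of 29 immediate early and ERK feedback genes (5.57 to 37.7 CPM against 74.4 and 97.6 CPM; -2.31, SE 0.52). The controls themselves differed in these last lists, with a median log2 ratio of replicate 2 to replicate 1 of 0.51 and 0.74. Other lists had such differences too: 0.61 for integrins, 0.62 for metallothioneins and zinc transporters, and -0.79 for HOX genes. The ratio was 0.555 for epithelial junctions and identity, -0.50 for EMT transcription factors and -0.07 for cholesterol synthesis. Without replicate 2 none of the values given in this paragraph was called (adjusted p = 0.0943 to 0.478).

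Lists of stress responses and other programmes are read against the 5.45% of all genes tested that were called. No member passed among 22 NRF2 antioxidant targets, 41 hypoxia and glycolysis genes, 25 cholesterol synthesis genes, 40 interferon-stimulated genes, 16 MHC class I genes, 30 NF-kB targets and cytokines, and 28 genes of ATF4 and the unfolded protein response, by edgeR. At an unadjusted p under 0.05 there were 6 NRF2 targets, 8 hypoxia genes, 6 NF-kB genes, 2 interferon genes and 1 in each of the other 3 lists, and DESeq2 called 2 NRF2 targets, 3 hypoxia genes, 4 NF-kB genes, 1 interferon gene and none in the other 3. Of 13 metallothioneins and zinc transporters SLC39A8, a zinc and manganese importer, rose (5.11 to 13.4 CPM in clones against 0.711 and 2.63 CPM; 2.70, SE 0.53, adjusted p = 0.0252). SLC30A1, the zinc exporter of the cell surface, was called as lower with overlapping groups: 12.5 to 24.3 CPM in clones against 22.3 and 196 CPM, a log2 fold change of -2.45 that was -0.17 without Control_6W replicate 2 (adjusted p = 0.847). Of 40 cell cycle and replication genes CDC25A, a phosphatase of G1-S entry, and TYMS, thymidylate synthase, fell (37.6 to 55.5 against 74.5 and 96.6 CPM, and 190 to 265 against 361 and 383 CPM). Of 23 p53 targets ZMAT3 and PLK3 fell, and of 19 heat shock proteins and cochaperones HSPA9, the mitochondrial chaperone mortalin, fell (288 to 373 against 416 and 531 CPM). HOXA11 rose among 20 HOX genes (3.76 to 6.25 against 2.13 and 2.26 CPM), and HDAC4, a class IIa histone deacetylase, rose among 41 repressive chromatin enzymes (23.9 to 34.98 against 14.7 and 11.3 CPM; 1.15, SE 0.20, adjusted p = 0.0202). The adjusted p-values of the members named here, from 0.0202 to 0.0446, were 0.0894 to 0.847 without Control_6W replicate 2.

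**Figure D3:**
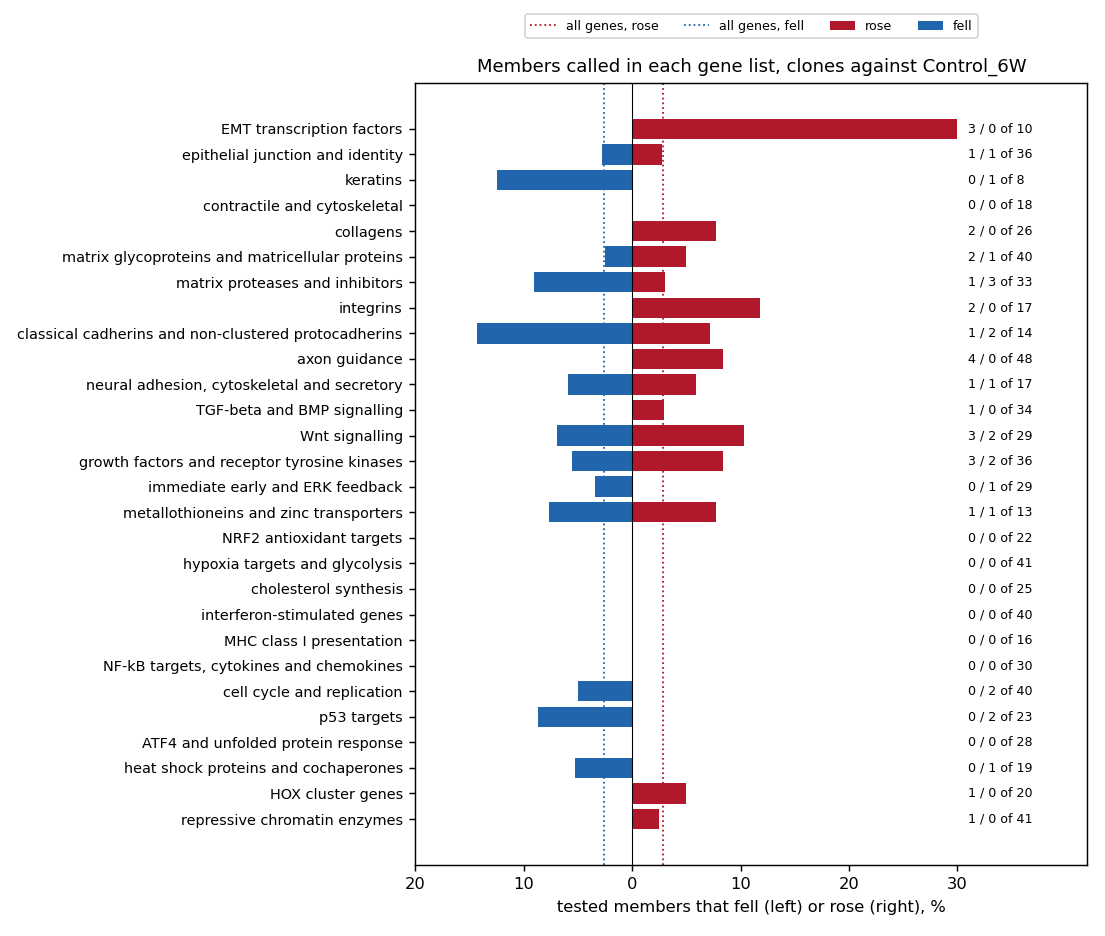
Share of the tested members of 28 gene lists that rose (right, red) or fell (left, blue) in clones against Control_6W, in percent, with the numbers that rose and fell and the number tested at the right; dotted lines mark the shares over all genes tested (2.81% and 2.65%). The EMT transcription factors have the largest share of rises, 3 of 10, and 8 lists have no called member.

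The clones also differed among themselves. The median SD of log2 CPM over the 6 clones was 0.226 per gene, and that of the 2 controls was 0.218. An SD from 2 libraries tends to come out lower than 1 from 6, so these medians do not show equal spread. Among called genes of at least 5 CPM in the clones, the 8 that varied most were ROBO1, CADM3, CPVL, ITGA4, FRY, FAM109B, LYPD1 and SPON2. All 8 rose, and all were at or under 1.90 CPM in both controls. ROBO1 was 29.5 CPM in clone 2 and 1.98 CPM in clone 6, whereas FRY, a scaffold of NDR kinases, was 19.3 CPM in clone 6 and 2.23 CPM in clone 5. SPON2, a secreted matrix protein of the spondin family, was 16.8 CPM in clone 6 and 2.57 CPM in clone 3, and LYPD1, a GPI-anchored LY6 protein, was 23.9 CPM in clone 3 and 2.67 CPM in clone 1. The order of clones therefore differed from gene to gene. Clone 1 stood somewhat apart over all genes, at r = 0.965 to 0.975 with the other clones, which correlated at 0.977 to 0.989 among themselves. By contrast TCF7L1, FBN1 and SEMA4B spanned less than 1.5-fold over the clones.

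Against the uncloned wash-out population few genes were called. In a fit of the 6 clones with the 2 Ni_6W+2W libraries 4 of 14273 genes were called (0.028%; 922 had an unadjusted p under 0.05). MIR1181 and NARR were higher in clones, and the readthrough transcripts SLMO2-ATP5E and TRIM6-TRIM34 were lower. These gene models overlap other genes, whose reads the counting could have split differently, and are uncertain: SLMO2-ATP5E was at 0 in Control_6W replicate 1 and 16.9 CPM in replicate 2. ZEB1 was 9.92 and 16.5 CPM in Ni_6W+2W, within or just above the range of the clones (log2 fold change of clones over Ni_6W+2W -0.34, SE 0.29, adjusted p = 0.896).

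The other libraries, none of which entered the fit, were placed by whether each called gene lay nearer the mean of the clones or that of Control_6W on the log2 scale. These genes were chosen for lying apart from Control_6W, which by itself can place other libraries nearer the clones. No share over all genes tested was taken, so the counts are a description only. Control_6W replicate 1 itself lay nearer the clones in 48 of the falls (12.8%) and 0 of the rises. In the 8 nickel libraries that are not clones 291 to 377 of the 398 rises and 243 to 361 of the 375 falls lay nearer the clones. The 4 Control_3D libraries, which had no nickel, were divided. In replicates 1 and 2 of Control_3D 341 and 352 of the rises (85.7% and 88.4%) and 298 and 333 of the falls (79.5% and 88.8%) lay nearer the clones, whereas in replicates 3 and 4 it was 32 and 61 of the rises (8.04% and 15.3%) and 94 and 162 of the falls (25.1% and 43.2%). OSBPL6 was 6.86 and 6.96 CPM in Control_3D replicates 1 and 2 and had 0 reads in 3 and 4. GALC showed the same, at 10.3 and 10.2 CPM against 0 reads. BCHE had 0 reads in Control_3D replicates 1 and 2 and was 3.90 and 5.53 CPM in 3 and 4. For these genes the level found in the clones was therefore also that of 2 libraries of unexposed BEAS-2B cells. With all 6 unexposed libraries as the control 409 of 13595 genes were called (3.01%), and of the 62 genes chosen by the rule that had a value there 5 were still called: FBN1, SEMA4B, NFASC, DUSP2 and MMP16. What sets these Control_3D libraries apart is not in the labels, and its part in the result was not tested.

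**Figure D4:**
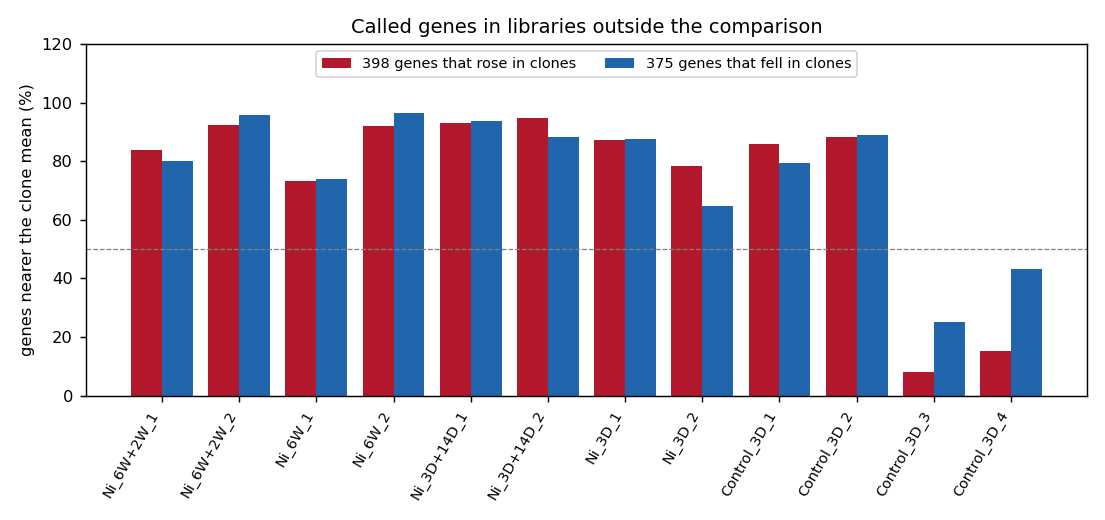
Share of the 398 genes that rose and of the 375 that fell in clones whose level in each library outside the comparison lay nearer the clone mean than the Control_6W mean, in percent; the dashed line marks 50%. The nickel libraries and Control_3D replicates 1 and 2 lie above the line in both sets, and Control_3D replicates 3 and 4 lie below it.

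The called genes were not spread evenly over the chromosomes. This was seen after the values were known, and the regions below were read off the same data, so no test is given. Among 10897 genes of at least 5 CPM 279 rose (2.56%) and 347 fell (3.18%). On chromosome 15, 62 of 357 genes rose (17.4%) and 0 fell, and the mean of the clones was above that of the controls in 330 of the 357. On chromosome 2 from 150 Mb onwards 39 of 277 rose (14.1%) and 0 fell, and on chromosome 7 up to 60 Mb 17 of 174 rose (9.77%) and 0 fell. On chromosome 17 up to 20 Mb 71 of 197 genes fell (36.0%) and 0 rose, and on chromosome 18 up to 20 Mb 22 of 50 fell (44.0%). These 5 regions held 9.83% of the genes tested, 143 of the 398 rises (35.9%) and 98 of the 375 falls (26.1%). Among the 67 called genes chosen by the rule, SNURF, SNRPN, FBN1, SEMA4B and IGF1R lie on chromosome 15, PTPRN, OSBPL6, TWIST2, ITGAV, ITGA4 and HDAC4 on the part of chromosome 2, CPVL, TWIST1, EGFR and HOXA11 on that of chromosome 7, NLGN2 on that of chromosome 17, and LAMA1 and TYMS on that of chromosome 18. ZEB1 lies in none of them.

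The shift was shared by most genes of a region and was modest in size. The median log2 ratio to the mean of Control_6W over the genes of chromosome 15 was 0.31 to 0.53 in the 6 clones, against 0.01 and -0.01 in the controls. For chromosome 17 up to 20 Mb it was -0.79 to -0.42 in clones, for chromosome 18 up to 20 Mb -0.66 to -0.32, and for chromosome 2 from 150 Mb 0.22 to 0.46. On chromosome 7 up to 60 Mb 5 clones had 0.33 to 0.50 and clone 6 had -0.04. Chromosome 9 from 70 Mb, not counted among the 5 regions, was alike: clones 2 to 6 had 0.26 to 0.44 and clone 1 had -0.06. There 21 of 343 genes rose (6.12%) and 0 fell, and COL5A1, SEMA4D and ROR2 lie on it. Some regions moved in part of the clones: the median of chromosome 13 was 0.26 to 0.45 in clones 2, 3, 4 and 6 and -0.10 and -0.01 in clones 1 and 5, and that of chromosome 22 was -0.54 in clone 1 and -0.11 to -0.03 in the others. Chromosome 17 from 20 to 30 Mb was at 0.92 in clone 1 and between -0.15 and 0.07 in the other clones. On chromosome 15 and on chromosome 17 up to 20 Mb the shift was not particular to the clones. In the uncloned Ni_6W+2W the medians were 0.53 and 0.47 on the former, and -0.61 and -0.53 on the latter. In Ni_3D, Ni_3D+14D and Ni_6W they ran from 0.33 to 0.45 and from -0.57 to -0.33. Control_3D replicates 1 and 2 had medians of 0.38 and 0.39 on chromosome 15 and -0.37 and -0.44 on chromosome 17 up to 20 Mb, whereas replicates 3 and 4 had -0.02 and -0.02, and 0.01 and 0.06. The files hold RNA measurements alone, and no cause of this pattern was tested.

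**Figure D5:**
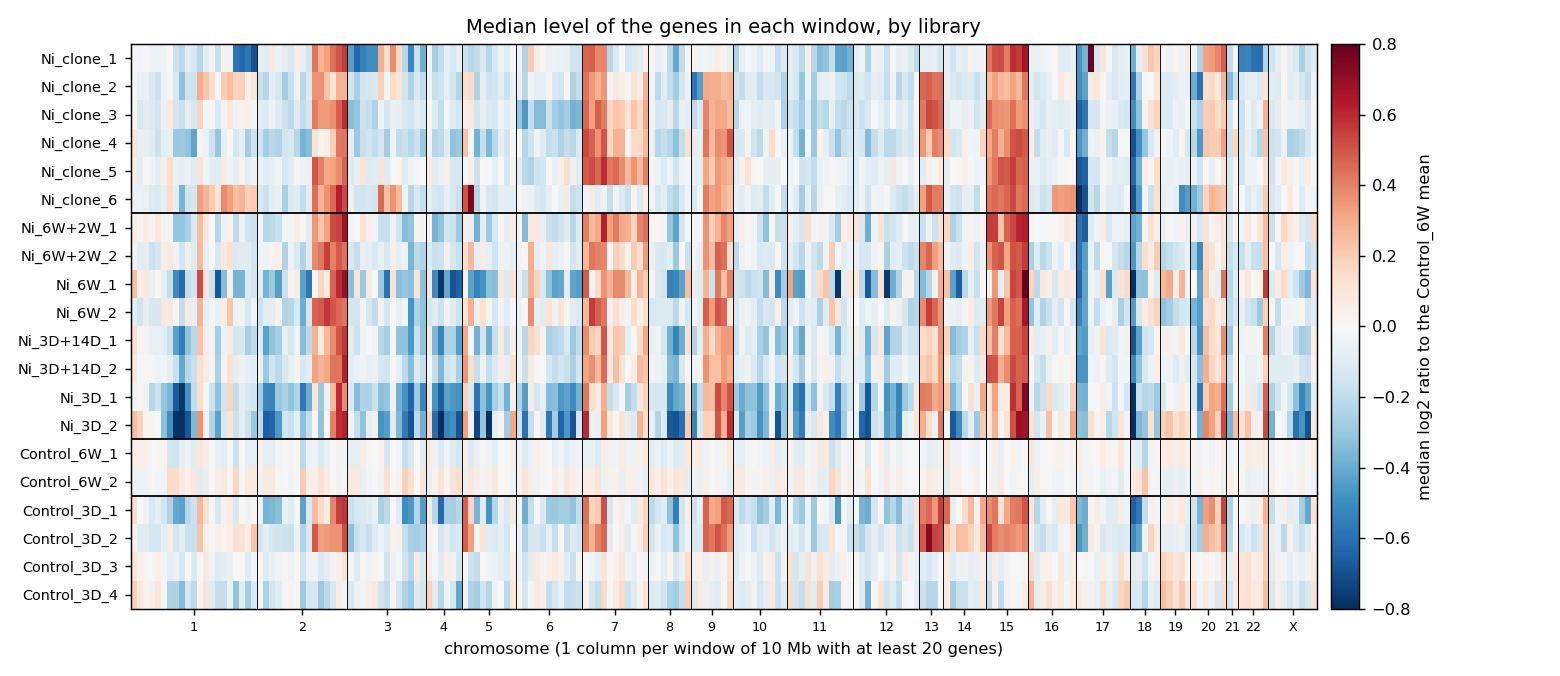
Median log2 ratio of gene level to the mean of Control_6W in each of 197 windows of 10 Mb (columns, by chromosome) with at least 20 genes of 5 CPM or more, for each library (rows, clones at the top); red is higher and blue lower than Control_6W. In 3 windows, all on chromosome 15, every clone was at 0.3 or above, and in 3 windows, on chromosomes 17 and 18, every clone was at -0.3 or below; Control_6W rows lie near 0 because they set the mean.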

How the data were processed

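Per the labels, total RNA was made into libraries with a TruSeq RNA kit. The authors deposited raw read counts per RefSeq gene, with RPKM beside them, and a table for each clone that holds their RPKM, their log2 ratio of clone over the mean control, a test score and an unadjusted p-value. Per the submitters' processing notes the builds were hg19 and GRCh37, and the tools included STAR 2.4 beside DESeq2 and DESeq; how reads were counted is not given in the sources used here. Counts were joined by RefSeq identifier (28 symbols had been changed by a spreadsheet). No pair of the 8 libraries agreed within counting error (lowest chi-square per degree of freedom 18.5).

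Clones and Control_6W were fitted with edgeR 4.0.16 in R 4.3.3: TMM factors over all 20 libraries, filterByExpr (at least 10 reads a library and 15 in total), the quasi-likelihood F test with robust dispersions, and Benjamini-Hochberg adjustment over all genes tested. Alternatives, given in the closing section, included DESeq2 1.42.0. The script was tested on simulated data. The members, gene lists and alternatives were chosen with earlier results of these data known. Named were 9 EMT genes, the 12 largest rises and falls of at least 5 CPM with no overlap, up to 4 called members a list and the 8 that varied most between clones. Some genes that these rules select are not reported here. Intervals and floors cover counting error only. Promoter sequences are RefSeq's (GRCh38.p14; 10311 of 14172 tested genes matched by symbol).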

Additional observations from a re-analysis of the deposited data

Results flagged for a closer look

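In 6 of 75 named genes 1 clone stood apart from the other 5 by Dixon's gap in log2 CPM, a criterion that chance meets in about 1 in 20 groups. SNAI2 was 1.33 CPM in clone 1 against 6.01 to 12.1 CPM in the other clones, MARK1 was 4.28 CPM in clone 1 against 13.8 to 16.5 CPM, and FGF1 was 3.18 CPM in clone 1 against 7.0 to 10.3 CPM. CPVL was 1.47 CPM in clone 5 against 10.9 to 16.8 CPM, and SLC39A8 was 5.11 CPM in clone 5 against 10.4 to 13.4 CPM. CDH18 was 0.0994 CPM in clone 2, which is 2 reads, and at 0 in the other clones.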

How the results depend on the processing

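The number of genes called between clones and Control_6W was 773. It was 2002 with DESeq2 (1107 higher, 895 lower; 13.4% of its tested genes), 464 with all libraries fitted together, 409 with all unexposed libraries as the control and 35 with the replicate block. Leaving out 1 library gave 7 to 1492, with 7 without Control_6W replicate 2, 231 without clone 2 and 851 without clone 1. RLE size factors gave 771, TMM over the compared libraries 746 and no filter 683. Clones against Ni_6W+2W gave 4 genes, 64 with DESeq2, 7 with no filter, 12 with the replicate block, 2 to 6 without 1 library, and 0 with all libraries fitted together, where 635 had an unadjusted p under 0.05. Replicate numbers 1 and 2 occur in both groups. For same-numbered libraries the deviations gave r = -0.0496 and -0.0352 with Control_6W, and -0.192 and 0.205 with Ni_6W+2W. The deviations did not pair by number throughout, so the block is given here only. None of the 67 called genes chosen by the rule reversed under these settings; of other genes named, SERPINB2 and SYT12 changed sign without Control_6W replicate 2 (0.42 and 0.49). Of the 67, 66 kept their call with DESeq2, 53 with no filter, 39 with all libraries fitted together, 17 with the replicate block, 5 (of 62 with a value) with all unexposed libraries, 47 without Control_6W replicate 1 and 2 without replicate 2. It was 36 without clone 2 or without clone 3, 41 without clone 4, 44 without clone 6 and 60 without clone 1 or 5. Values with no call that changed sign were ZEB2 and CDH1 without Control_6W replicate 2 and EPCAM without replicate 1 (ranges with 1 library left out -0.157 to 0.591, -2.083 to 0.062 and -0.051 to 0.732), VIM (-0.14 with the block, -0.05 with all unexposed libraries) and FN1 (-0.28 with all unexposed libraries). Of the 28 lists, none had a called member without Control_6W replicate 2. The cause of these differences was not tested. At this depth 1 CPM is about 20 reads in a library, which limits what can be said of genes under it.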

Other observations

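The genes in this paragraph were chosen after their values were seen. Beside SNURF and SNRPN, 3 long noncoding transcripts of the same imprinted locus on chromosome 15 were among the rises: IPW was 1.41 to 4.53 CPM in clones against 0.0547 and 0 CPM in Control_6W, and PWAR5 (0.294 to 1.34 CPM in clones) and PWARSN (0.176 to 0.656 CPM) had 0 reads in both controls. Their adjusted p-values were 0.00642, 0.0252 and 0.0419 by edgeR, and 0.0907, 0.176 and 0.234 without Control_6W replicate 2. Zinc-finger genes of the same on-off kind were ZNF883 (0.552 to 6.33 CPM in clones), ZIK1 (0.525 to 2.72 CPM) and ZNF347 (0.232 to 4.65 CPM), each with 0 reads in both controls. In the other direction TENM1, a teneurin of neural connections, had 0 reads in all 6 clones against 3.23 and 4.71 CPM (adjusted p = 0.0113 by edgeR, 0.119 without replicate 2). SERPINB2, an inhibitor of plasminogen activators, was 0.581 to 4.87 CPM in clones against 2.41 and 140.5 CPM, so that its fall came from Control_6W replicate 2 alone.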
